A study of Saccharomyces cerevisiae with 8 samples.

Results

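RNA polymerase II (RNAPII) transcribes protein-coding genes and also a set of noncoding RNA genes that lie between them. The regions described here are the RNAPII ChIP-seq peaks of budding yeast that touched no protein-coding open reading frame (ORF). They were selected on the deposited peak positions: a peak was a member if it overlapped no nuclear ORF of the R64 annotation, counted from the first to the last coding base, by even 1 bp. Of 4420 peaks in 4 lists, 212 (4.80%) were such ORF-free peaks, and they merged into 135 loci.

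Mid-log cultures at 30 °C in SC medium were used, from W303a strains whose Tfg1 bore an HA tag. Tfg1 is the largest part of TFIIF, a general transcription factor that binds RNAPII at promoters. Tfg1-HA had the normal sequence, and in Tfg1-K60,61R-HA lysines 60 and 61, which receive the small modifier SUMO, were arginines. The latter strain also carries another, unintended missense substitution in Tfg1, and effects of that change and of the lysine changes cannot be told apart. RNAPII was immunoprecipitated (IP) with antibody 8WG16, and each strain gave 2 IP libraries and 2 input libraries. The series calls its replicates independent, and the peak lists hold no reads in which the tag, the substitutions or the depth could be checked.

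The genotype of the lists needs a caution. The labels assign each list to a strain, but the deposited names of the lists use upper-case TFG1 for both lists numbered 1 and lower-case tfg1 for both numbered 2, which in yeast would mark a mutant allele. By that convention Tfg1-HA replicate 2 would be a Tfg1-K60,61R-HA list, and Tfg1-K60,61R-HA replicate 1 a Tfg1-HA list. The labels were kept, each direction below is one between lists as labelled, and values are therefore given per list. The rows given for Tfg1-K60,61R-HA replicate 1 also repeated all 894 rows of the second Tfg1-K60,61R-HA list, and these copies were removed.

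Small nucleolar RNAs (snoRNAs) guide the chemical modification of ribosomal RNA, small nuclear RNAs (snRNAs) form the spliceosome, and telomerase RNA carries the template for telomere synthesis. In yeast most of these are made by RNAPII from short genes of their own. Transfer RNA (tRNA) genes are transcribed by RNA polymerase III, and Ty retrotransposons and their long terminal repeats (LTRs) by RNAPII. Intergenic stretches also hold promoters before ORF starts and the terminator regions after ORF ends, where RNAPII is released.

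Loci with snoRNA genes were among those that recurred most. The RNA-strand sequences of 5 snoRNA genes in R64 are printed because each lay wholly under an ORF-free peak in 3 or 4 lists. In SNR67, SNR53, SNR50 and SNR69, which encode box C/D guides of RNA methylation, capitals mark the box C letters TGATGA and the box D letters CTGA. SNR49 encodes a box H/ACA guide of pseudouridylation, and capitals mark its ACA near the 3′ end.
SNR67: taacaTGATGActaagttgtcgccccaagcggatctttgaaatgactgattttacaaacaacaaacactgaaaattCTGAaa
SNR53: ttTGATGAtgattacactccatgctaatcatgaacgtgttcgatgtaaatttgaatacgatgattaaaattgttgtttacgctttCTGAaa
SNR50: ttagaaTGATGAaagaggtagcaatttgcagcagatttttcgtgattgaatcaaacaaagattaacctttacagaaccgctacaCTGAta
SNR69: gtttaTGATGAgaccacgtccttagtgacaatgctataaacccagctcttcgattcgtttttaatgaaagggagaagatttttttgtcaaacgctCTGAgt
SNR49: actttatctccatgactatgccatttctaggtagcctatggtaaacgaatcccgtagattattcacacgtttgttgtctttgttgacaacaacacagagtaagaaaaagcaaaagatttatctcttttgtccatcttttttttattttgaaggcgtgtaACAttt
Both boxes within 20 bases of the gene ends were found in 36 of the 76 annotated snoRNA genes (47.4%), on the RNA strand only. Coordinates are chrV:61352-61433 and chrV:61699-61789 for SNR67 and SNR53, chrXV:259489-259578 for SNR50, chrXI:364776-364876 for SNR69 and chrXIV:716120-716284 for SNR49, all on the plus strand.

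The strongest ORF-free peak of every list lay over CCW22 (YDR134C, chrIV:721071-721481, minus strand), which R64 annotates as a pseudogene and not as an ORF. Its paralog CCW12 encodes a major cell wall mannoprotein. The frame of CCW22 opens with ATG and is stopped by TAA at codon 67 of 137. The 63 bases around it are shown with the stop in capitals. The peak is among those that touch no ORF because R64 does not annotate CCW22 as one.
CCW22: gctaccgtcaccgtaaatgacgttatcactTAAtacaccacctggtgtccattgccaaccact

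The per-list make-up was examined first. ORF-free peaks numbered 50 and 58 in the Tfg1-HA lists against 52 in each of those for Tfg1-K60,61R-HA, or 3.98%, 4.95%, 4.74% and 5.82% of the peaks of the list. The mean was 54 ± 5.66 peaks for Tfg1-HA against 52 ± 0 peaks for Tfg1-K60,61R-HA (SD, n = 2, exact permutation p = 1). The mean share was 4.47 ± 0.690% and 5.28 ± 0.764% (SD, n = 2, exact permutation p = 0.667). The groups overlapped in both measures, and with 2 lists against 2 this two-sided test allows no p below 0.333. ORF-free peaks covered 32.6 and 36.3 kb in the Tfg1-HA lists against 40.7 and 30.6 kb for Tfg1-K60,61R-HA, again with overlap (exact permutation p = 1). Because whole cultures were used, RNAPII on fewer cells and less RNAPII per cell cannot be told apart.

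ORF-free peaks were short and of low fold. Fold is the authors' ratio of IP over input-derived background, averaged over a peak. Median width was 332.5, 364, 374 and 335 bp in the list order used throughout (Tfg1-HA replicate 1, Tfg1-HA replicate 2, then Tfg1-K60,61R-HA replicate 1, Tfg1-K60,61R-HA replicate 2), against 1254, 1215, 1245.5 and 1156 bp for peaks that touched an ORF. Single ORF-free peaks were 214 to 6607 bp wide. A short interval can more easily fit between ORFs, so that width is tied to the rule. Median fold was 1.37, 1.43, 1.31 and 1.37, against 1.51, 1.50, 1.45 and 1.50 for ORF-touching peaks, and 7, 6, 5 and 6 ORF-free peaks reached a fold of 2.

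Annotated features were assigned to loci in a set order (snoRNA, snRNA, other ncRNA, tRNA, Ty or LTR, other feature), and the remaining loci were named by the strands of the ORFs beside them. Of the 135 loci, 49 overlapped an annotated feature and 86 did not. Among the 49, 7 held a snoRNA, 2 an snRNA, 1 telomerase RNA, 15 a tRNA, 15 a Ty element or LTR, and 9 an origin of replication, centromere or pseudogene. No locus lay in the ribosomal DNA repeat. The 86 others comprised 41 between tandem ORFs, 31 between convergent ORFs, whose ends face each other, and 14 between divergent ORFs, whose starts face each other.

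**Figure D1:**
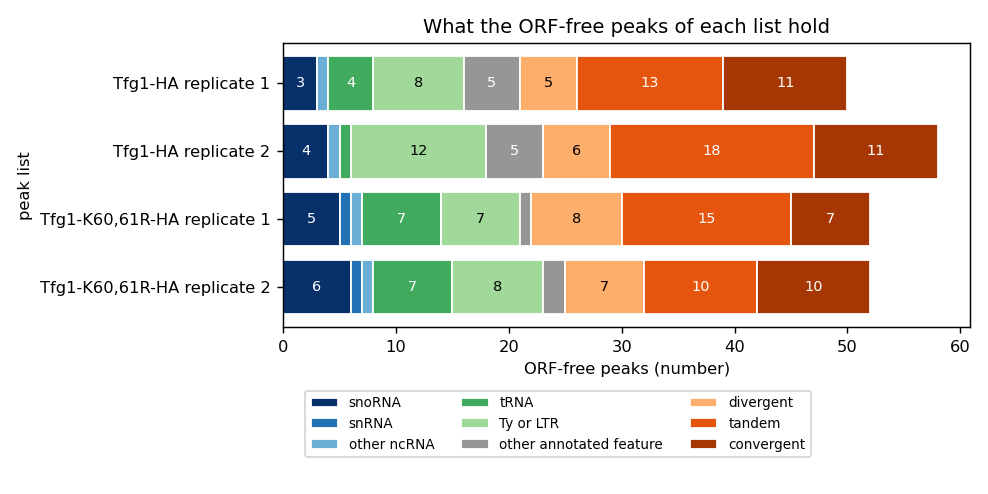
Number of ORF-free peaks in each of the 4 lists (bars), coloured by what they held; segments of 3 or more are numbered and each peak is counted once. Peaks over snoRNAs were 3 and 4 in the Tfg1-HA lists against 5 and 6 for Tfg1-K60,61R-HA, and the unannotated classes (orange to brown) made up 27 to 35 peaks of each list.

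Most loci were ORF-free in a single list. The numbers were 91 loci in 1 list, 25 in 2 lists, 8 in 3 lists and 11 in all 4. Of the 135 loci, 81 (60%) lay under an ORF-touching peak in another list, so that the same stretch was ORF-free in one library and part of a gene peak in another. Counting peaks of either kind, 30 loci (22.2%) had a peak in 1 list only and 50 (37.0%) had one in all 4, against 18.4% and 52.7% of all 1352 merged peak regions. The loci with a peak in 1 list came from Tfg1-HA replicate 1 in 15 cases, from Tfg1-HA replicate 2 in 5, and from replicates 1 and 2 of Tfg1-K60,61R-HA in 7 and 3.

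Peaks at recurring loci were wider and of higher fold. Median width was 268, 372, 620 and 785.5 bp for loci ORF-free in 1, 2, 3 and 4 lists. Median fold was 1.34, 1.32, 1.47 and 1.76, and median −log10 q was 3.01, 3.23, 7.51 and 16.5. Recurrence is tied to these values by the peak calling, since a peak far above the q cut-off is more easily called in every list. Of the 11 loci found in all 4 lists 10 overlapped an annotated feature, against 27 of the 91 found in 1 list. Overlap was scored on the merged locus, and a wider locus overlaps a feature more easily. At RHB1–FEN2 and TYE7–REV1, which are among the 10, the LTR lay outside the stretch shared by all 4 lists.

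**Figure D2:**
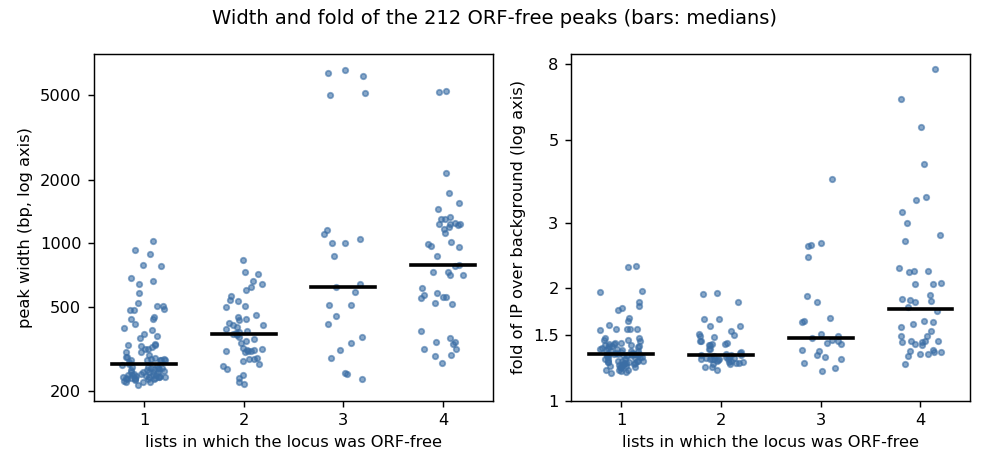
Width (left, bp) and fold of IP over background (right) of the 212 ORF-free peaks, both on log axes, by the number of lists in which their locus was ORF-free; points are peaks, spread sideways for visibility, and bars are medians. Median width rose from 268 bp at loci of 1 list to 785.5 bp at loci of all 4.

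At CCW22 the ORF-free peak had a fold of 6.45 and 5.40 in the Tfg1-HA lists against 7.72 and 4.31 for Tfg1-K60,61R-HA. It was the highest-fold ORF-free peak of each list, and the genotypes overlapped. The peaks spanned chrIV:720434-721688 in all, covered all of CCW22 in every list and shared 1100 bp. At CCW12 (chromosome XII) the peaks, which touch its ORF, had folds of 9.79, 8.63, 9.86 and 8.59. Reads that fit both genes cannot be told apart in peak lists, and whether strain W303a carries the stop was not examined.

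Loci over snoRNA genes are described next. The peak over SNR49, between LYS9 and BRE5, had folds of 3.00 and 3.50 in the Tfg1-HA lists against 3.46 and 2.21 for Tfg1-K60,61R-HA. The peak over SNR67 and SNR53, between RML2 and PAU2, had folds of 2.78, 3.20, 2.67 and 2.23, and it also covered a tRNA gene. That over SNR50, between YOL036W and SMC5, had folds of 1.74, 1.85, 1.60 and 1.49. Tfg1-K60,61R-HA replicate 2 was the lowest list at all 3 loci. By fold, both Tfg1-K60,61R-HA values lay below both Tfg1-HA values at SNR67 and SNR53 and at SNR50, and the groups overlapped at SNR49. Percentiles of fold within a list kept that order at SNR50 only. They overlapped at SNR49 and at SNR67 and SNR53, where they were 85.1 and 88.5 for Tfg1-HA against 85.4 and 81.6 for Tfg1-K60,61R-HA. Lower values in both Tfg1-K60,61R-HA lists were common. By percentile of fold within a list, they were found at 51.5% of all 713 merged regions with a peak in all 4 lists. No such share was taken for fold itself. SNR69, between PTM1 and RGT1, was ORF-free in 3 lists with folds of 1.63 in Tfg1-HA replicate 2, 1.1997 in Tfg1-K60,61R-HA replicate 1 and 1.67 in Tfg1-K60,61R-HA replicate 2. It lay under a 2484 bp peak in Tfg1-HA replicate 1 that reached into PTM1, with a fold of 1.34.

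The other snoRNA and snRNA loci were ORF-free in 1 list only, though a peak covered each gene wholly in all 4. SNR82, an H/ACA snoRNA gene between LSG1 and USE1, was under peaks of fold 2.48, 2.38, 2.04 and 1.77. Those of the first 3 lists reached 40, 54 and 45 bp into USE1 and were therefore not members. SNR85, another H/ACA gene beside NUP188, had folds of 3.08, 2.74, 2.45 and 2.28, with 49, 43 and 13 bp over NUP188 in the same 3 lists. At these loci 13 to 54 bp at a peak's edge decided membership.

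SNR81, an H/ACA gene between SPE2 and GAL11, was ORF-free in Tfg1-K60,61R-HA replicate 1 with a fold of 1.80, and the other peaks entered SPE2 by 99 to 197 bp. SNR14, the U4 snRNA gene beside TMA20, was ORF-free in the same list with a fold of 1.96, and the other peaks entered TMA20 by 8 to 59 bp with folds of 2.43, 2.28 and 1.93. SNR7, the U5 snRNA gene between TOS2 and PET54, was ORF-free in Tfg1-K60,61R-HA replicate 2 with a fold of 2.29 over 688 bp. In the other lists it shared a peak of 1934 to 2034 bp with PET54 and HSV2, of fold 2.38, 2.73 and 2.07.

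The gene of telomerase RNA, TLC1, was ORF-free in all 4 lists, but at its 3′ end only. The peaks spanned chrII:308679-309063, covered 16.1%, 14.7%, 13.5% and 15.1% of the gene, and ended near the facing gene CSG2. Folds were low, at 1.43 and 1.44 in the Tfg1-HA lists against 1.36 and 1.32 for Tfg1-K60,61R-HA. The end of TLC1 under the peak carries the site bound by the Sm protein ring, as do U4 and U5, and these stretches are printed to show what the 3 RNAs share. Capitals mark TTTTTGG on the RNA strand.
TLC1: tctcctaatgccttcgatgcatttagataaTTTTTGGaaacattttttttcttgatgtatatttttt
SNR14: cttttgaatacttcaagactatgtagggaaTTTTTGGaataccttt
SNR7-L: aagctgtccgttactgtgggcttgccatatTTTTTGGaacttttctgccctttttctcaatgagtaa
The stretches are chrII:308710-308776 (plus), chrV:167427-167472 (minus) and chrVII:939468-939534 (minus). Among 46031 windows of 67 bp between ORFs, 2.85% held these letters on either strand, so that the match is a description of these genes.

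Over the whole annotation, noncoding RNA genes that lay under a peak were mostly under one that also touched an ORF. The rule sets part of this, since 11 snoRNA and 12 other ncRNA genes overlap an ORF themselves. A peak that covers such a gene wholly cannot be ORF-free. Clear of ORFs were 65 snoRNA and 20 other ncRNA genes. Of 76 snoRNA genes, 74, 75, 74 and 73 lay under a peak of some kind in the 4 lists, and 4, 5, 6 and 7 under an ORF-free one. Of 6 snRNA entries, 5 were under a peak in each list, and 0, 0, 1 and 2 under an ORF-free one. The last 2 are SNR7-L and SNR7-S, overlapping entries of the U5 gene under the same peak. Of 32 other ncRNA genes, 13, 11, 10 and 11 were under a peak, and only TLC1 under an ORF-free one. ORF-free peaks over snoRNA, snRNA or other RNAPII ncRNA genes numbered 4 and 5 in the Tfg1-HA lists against 7 and 8 for Tfg1-K60,61R-HA. The means, 4.5 ± 0.707 and 7.5 ± 0.707 (SD, n = 2), differed by 3 without overlap (exact permutation p = 0.333, the smallest possible). The separation was lost under a fold minimum of 2, where the difference was 1 (exact permutation p = 1), and with up to 10% of a peak allowed over ORFs, where it was 3.5 (exact permutation p = 0.667). Beside this stands that each of the RNAPII ncRNA genes concerned lay under a peak in all 4 lists, and that at SNR82, SNR85, SNR81, SNR14 and SNR7 both Tfg1-HA peaks entered an ORF.

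**Figure D3:**
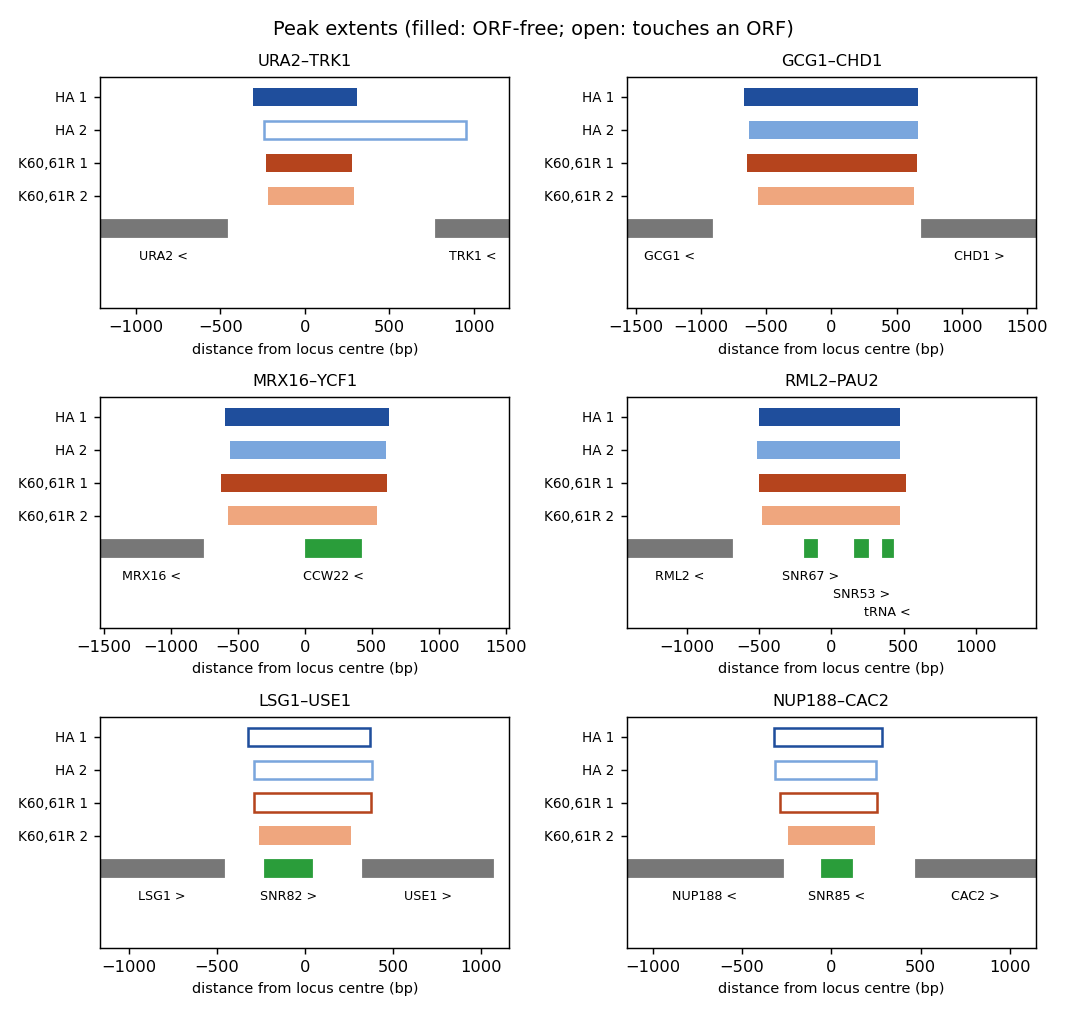
Extents of the peaks (horizontal bars, 1 row per list; HA is Tfg1-HA and K60,61R is Tfg1-K60,61R-HA, with the replicate number) at 6 loci, in bp from the centre of the locus; filled bars are ORF-free peaks, open bars touch an ORF, grey boxes are ORFs, green boxes are other genes, and < and > give the strand. At SNR82 the open bars overlap USE1 by 40 to 54 bp, and at URA2–TRK1 no bar reaches the URA2 ORF.

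Loci counted as transfer RNA loci numbered 15, as many as those of a Ty element or LTR. Of 275 tRNA genes, 51, 39, 46 and 33 lay under a peak and 5, 2, 8 and 8 under an ORF-free one. Most of the 15 loci counted as tRNA loci (11) were ORF-free in 1 list. The tRNA gene beside SNR53, on the opposite strand, was wholly covered in every list. At KCC4–YCL021W-A (chrIII:82477-83098) folds were 1.62, 1.41, 1.42 and 1.26. There the tRNA gene was touched in Tfg1-HA replicate 1 and, for Tfg1-K60,61R-HA, in replicate 2, but not in the other lists, and an LTR of Ty1 took up 54.2% of the locus. RNAPII does not transcribe tRNA genes, and what the antibody recovered at them was not tested.

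Ty elements gave the widest members. YGRCTy2-1, YLRCTy2-2 and YNLCTy2-1 are Ty2 elements in which R64 annotates no ORF, and wide peaks over them were therefore ORF-free. Over YGRCTy2-1, on chromosome VII, the peak was 5200 bp wide in Tfg1-HA replicate 1 and 5242 bp wide in Tfg1-K60,61R-HA replicate 1, with folds of 1.83 and 1.92. In each of the other lists it was broken into separate peaks of 1446 to 2142 bp. YNLCTy2-1 lay under peaks of 6607, 6400 and 6208 bp with folds of 1.83, 2.65 and 1.47, and under a 6720 bp peak in Tfg1-HA replicate 1 that entered YNL035C by 67 bp, with a fold of 2.52. YLRCTy2-2 had peaks of 5012 and 5134 bp in both lists numbered 1, short peaks in Tfg1-HA replicate 2 and none in Tfg1-K60,61R-HA replicate 2.

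The lists that carried whole-element peaks over YGRCTy2-1 and YLRCTy2-2 were thus both replicates numbered 1, 1 of each labelled genotype. Ty copies resemble each other, reads cannot be assigned to a single copy with certainty, and the Ty content of W303a can differ from the reference. Solo LTRs or LTR ends lay at other recurring loci, such as LSC1–YOR142W-A at the left end of YORWTy1-2, with folds of 1.37, 1.44, 1.35 and 1.49. At some loci the LTR was only grazed. It made up 11.6% of RHB1–FEN2 and 5 bp of TYE7–REV1.

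RHB1–FEN2 (chrIII:168450-169720) had folds of 2.26 and 2.07 in the Tfg1-HA lists against 1.86 and 1.33 for Tfg1-K60,61R-HA. It began 450 bp before the start of RHB1, a GTPase gene of the Rheb family, and peaks covered 0% of RHB1 and of FEN2 in every list. TYE7–REV1 (chrXV:979395-980263) had folds of 2.22, 2.05, 1.44 and 1.58 and lay 1325 bp before the start of TYE7, which encodes an activator of glycolytic genes. There the TYE7 ORF was itself 100% covered in every list and REV1 0%. Both loci had lower folds in both Tfg1-K60,61R-HA lists than in both Tfg1-HA lists. That order was common over all regions (51.5% by percentile of fold).

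Among loci with no annotated feature, GCG1–CHD1 alone was ORF-free in all 4 lists. It lies between divergent genes, GCG1 for an enzyme of glutathione breakdown and CHD1 for a chromatin remodeler. Its peaks were 1334, 1300, 1302 and 1192 bp wide, with folds of 2.06, 1.87, 1.78 and 1.64, and shared 1192 bp of chrV:504030-505364. They came within 27 bp of CHD1 and 247 bp of GCG1, yet 0% of either ORF was covered in any list.

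At URA2–TRK1 (chrX:172516-173135) the folds were among the highest of the ORF-free peaks. They were 3.91 in Tfg1-HA replicate 1, 2.42 in Tfg1-K60,61R-HA replicate 1 and 2.60 in Tfg1-K60,61R-HA replicate 2, and in Tfg1-HA replicate 2 a peak of fold 4.17 ran 178 bp into the end of TRK1. Both Tfg1-HA values lay above both Tfg1-K60,61R-HA values, an order that was common over all regions (51.5% by percentile of fold). URA2 encodes the enzyme of the opening steps of pyrimidine synthesis, and in yeast it is known for short transcripts that start upstream and are terminated before the ORF when uracil is plentiful. The peaks lay 148 bp or more upstream of the URA2 start, and 0% of the URA2 ORF was under a peak in any list.

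MSC6–GDS1 (chrXV:1003894-1005045) was ORF-free in 3 lists, with folds of 2.61 in Tfg1-HA replicate 2, 1.91 in Tfg1-K60,61R-HA replicate 1 and 1.64 in Tfg1-K60,61R-HA replicate 2. A peak of fold 2.28 entered GDS1 by 181 bp in Tfg1-HA replicate 1. In the 3 other lists peaks stayed 91 bp or more before the GDS1 start. Both Tfg1-HA values were the higher ones, again the order common over all regions (51.5% by percentile of fold). HXT1–HXT5 and SFL1–ARP8, the remaining unannotated loci of 3 lists, had lower folds, of 1.26 to 1.45 and 1.22 to 1.36.

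The middle 200 bases of the stretch shared by the ORF-free peaks at these 3 loci are shown as the sequence under unannotated RNAPII. URA2–TRK1 is in the direction of URA2 (minus strand, chrX:172756-172955), GCG1–CHD1 in that of CHD1 (chrV:504633-504832) and MSC6–GDS1 in that of GDS1 (chrXV:1004337-1004536). Capitals mark the TATA letters TATAAA, searched on both strands.
URA2-TRK1: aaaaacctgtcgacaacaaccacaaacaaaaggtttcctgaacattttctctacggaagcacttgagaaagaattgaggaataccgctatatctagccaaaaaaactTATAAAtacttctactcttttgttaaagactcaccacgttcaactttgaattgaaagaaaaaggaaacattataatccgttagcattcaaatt
GCG1-CHD1: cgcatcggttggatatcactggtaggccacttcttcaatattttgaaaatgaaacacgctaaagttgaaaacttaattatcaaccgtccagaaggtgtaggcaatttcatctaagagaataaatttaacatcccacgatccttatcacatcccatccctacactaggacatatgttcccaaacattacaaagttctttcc
MSC6-GDS1: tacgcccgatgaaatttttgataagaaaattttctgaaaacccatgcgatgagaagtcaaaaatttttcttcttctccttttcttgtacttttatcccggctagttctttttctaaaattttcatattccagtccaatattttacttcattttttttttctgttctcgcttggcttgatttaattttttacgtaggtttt
URA2–TRK1 held TATAAA once, in the direction of URA2, and the other windows held none. Of 13538 windows of 200 bp between ORFs, 34.2% held it on either strand.

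**Figure D4:**
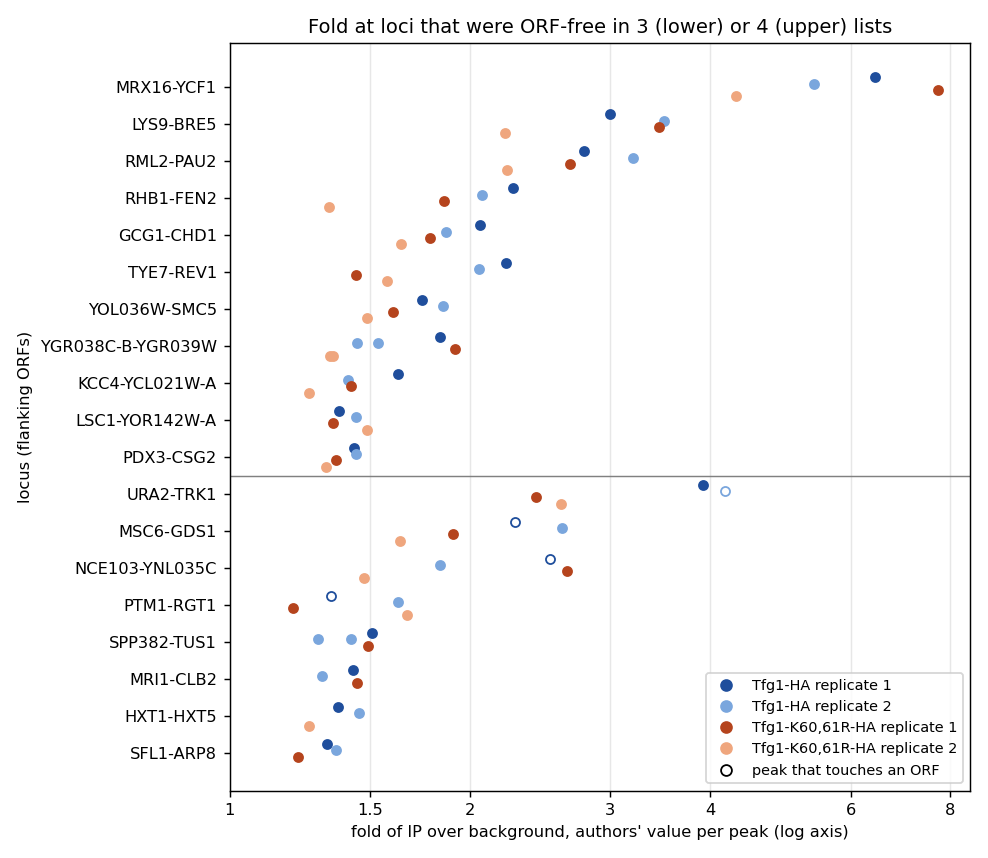
Fold of IP over background (log axis) at the 19 loci that were ORF-free in 4 lists (above the line) or 3 lists (below it); each locus is named by its flanking ORFs, colours give the list, open circles are peaks that touched an ORF, and a list with 2 peaks has 2 points. CCW22 (MRX16–YCF1) spans 4.31 to 7.72, and at URA2–TRK1 both Tfg1-HA points (3.91 and 4.17) lie above both Tfg1-K60,61R-HA points.

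The position of loci between ORFs was then compared with the gaps available. Of 4735 gaps of at least 214 bp, the width of the smallest member, 17.0% were convergent, 29.5% divergent and 53.5% tandem. Of the 86 unannotated loci, which lay in 77 gaps, 36.0%, 16.3% and 47.7% were. The 4735 gaps include those with an annotated feature, so these are shares of unlike sets. Among gaps without any annotated feature, an ORF-free peak was present in 4.72% of the convergent, 0.821% of the divergent and 1.70% of the tandem ones. A peak of either kind touched 55.2%, 28.5% and 40.9% of the same gaps, in the same order of orientations. Below 500 bp, 26 of 528 convergent gaps and 0 of 596 divergent gaps held an ORF-free peak, and from 500 bp upward 4 of 108 and 10 of 622 did. Gaps are not replicates, and these shares are a description.

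**Figure D5:**
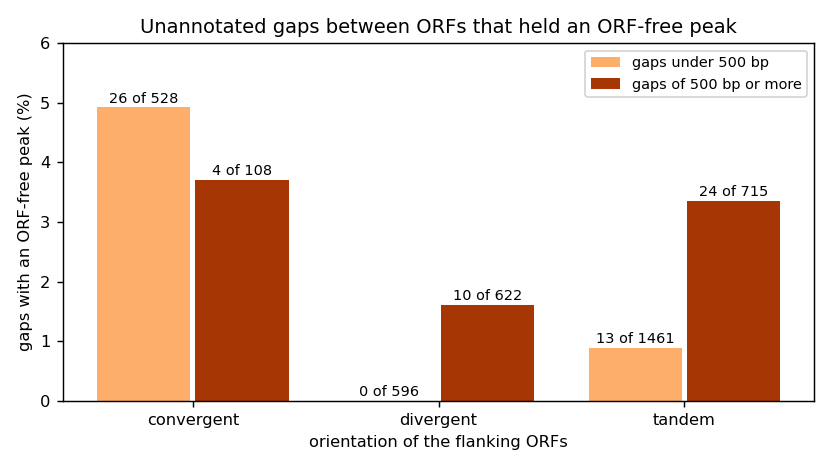
Percentage of unannotated gaps between ORFs that held an ORF-free peak in at least 1 list (bars, with the number of gaps above), by the orientation of the flanking ORFs and the length of the gap. Convergent gaps under 500 bp were at 4.92% (26 of 528) and divergent gaps of that length at 0 of 596.

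Of all 135 loci, 94 came within 300 bp of an ORF end and 45 within 300 bp of an ORF start, and some did both. Convergent gaps have ends and no start, and the median length of the gaps compared above was 443 bp. The counts therefore depend on the gaps, and no share over gaps was taken beside them. The share of ORF-free peaks within 300 bp of a start was 38.0% and 29.3% in the Tfg1-HA lists against 40.4% and 25.0% for Tfg1-K60,61R-HA. The means, 33.7 ± 6.14% and 32.7 ± 10.9% (SD, n = 2), overlapped (exact permutation p = 1).

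Few loci separated the labelled genotypes by presence. At 7 loci a peak of either kind was found in both Tfg1-HA lists but in no Tfg1-K60,61R-HA list (5.19%), against 6.95% of all merged peak regions. The opposite pattern was found at 2 loci (1.48%), against 0.444% of all regions. The share of the first pattern was near that of all regions, and the second rests on 2 loci. Without Tfg1-HA replicate 2 or Tfg1-K60,61R-HA replicate 1 the 7 became 21 or 27. Without Tfg1-HA replicate 1, Tfg1-K60,61R-HA replicate 1 or Tfg1-K60,61R-HA replicate 2 the 2 became 4, 5 or 7. Leaving out a list also drops a condition of the pattern, which by itself can only keep or raise these counts. The same shares over all regions were not computed.

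The locus of highest fold found in the Tfg1-HA lists only was IMA3–CSS1, at the 3′ end of HXT12, a hexose transporter pseudogene. Folds there were 1.84 and 1.48, with peaks of 622 and 565 bp. The next loci of this pattern were MIY2–NAB3, AUR1–MRP17, LSM2–RRN10 and VPS54–REG1, with folds from 1.29 to 1.52. In the Tfg1-K60,61R-HA lists only were GLC3–YEL009C-A, over a tRNA gene, and RKM4–HSP78. At both, the peak of Tfg1-K60,61R-HA replicate 1 touched an ORF and had folds of 1.42 and 1.33, and the ORF-free peak of Tfg1-K60,61R-HA replicate 2 had folds of 1.37 and 1.33. CRS5, a metallothionein gene that R64 also annotates as a pseudogene, has a stop at codon 9 of 70. It lay under an ORF-free peak in Tfg1-HA replicate 1 only, with a fold of 1.58 and 76.7% of the gene within the locus. The locus itself, DFG16–HMS1, was not of 1 genotype only. Tfg1-K60,61R-HA replicate 2 had an ORF-free peak of 216 bp and fold 1.35 there, which did not overlap CRS5.

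Loci with a peak in all 4 lists were then compared by the fold of those peaks. Fold is an average over a whole peak, and at 39 of these 50 loci at least 1 list had an ORF-touching peak of another extent, so that the values there are not levels of the same stretch. Fold was first turned into a percentile within its list. The lists held 1257, 1171, 1098 and 894 peaks, and a percentile does not remove this difference. A list that lacks weak peaks gives a strong region a lower percentile at equal signal. How far this sets the orders and shares by percentile was not tested. Of 50 loci with a peak in all 4 lists, 21 had a lower percentile for both Tfg1-K60,61R-HA replicates than in both Tfg1-HA lists, against 51.5% of all 713 such regions. The opposite order was found at 1 locus, against 6.45% of all regions. The median difference was −8.15 percentile points at these loci and −6.41 over all regions. The share of lower values at these loci was thus not above that over regions in general. Of the 11 loci ORF-free in all lists, 5 had the lower percentile for both Tfg1-K60,61R-HA replicates: RHB1–FEN2, TYE7–REV1, TLC1, SNR50 and GCG1–CHD1. The other 6 overlapped. At these 11 loci every peak was ORF-free, although peak edges still differed between lists.

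The locus with the opposite order was DOM34–CIT1, which spans the centromere CEN14 and was ORF-free in Tfg1-HA replicate 2 only. Its fold was 1.44 and 1.42 in the Tfg1-HA lists against 1.58 and 1.72 for Tfg1-K60,61R-HA, and the peaks of the other 3 lists touched an ORF. CEN13, between YPT7 and CDC5, was the other centromere among the loci. It had an ORF-free peak of fold 1.33 in Tfg1-K60,61R-HA replicate 2, ORF-touching peaks of 1.25 and 1.19 in both lists numbered 1, and none in Tfg1-HA replicate 2.

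Some members were parts of wide peaks in other lists. An example chosen after its values were seen is KAE1–GAP1, before GAP1, the general amino acid permease gene. In Tfg1-K60,61R-HA replicate 1 an ORF-free peak of 486 bp and fold 1.59 stood apart from a 2561 bp peak of fold 10.2 over GAP1. In the Tfg1-HA lists a single peak of 3975 or 3929 bp covered both, with folds of 9.34 and 7.83. Tfg1-K60,61R-HA replicate 2 had the GAP1 peak alone, at a fold of 6.38.

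Because membership turns on 1 bp, peaks at the limit were counted. Of the 212 members, 24 ended less than 10 bp from an ORF, and 14 ORF-touching peaks overlapped ORFs by 10 bp or less. Members directly next to an ORF lay beside MRPL35, LRP1 and GLC3, with folds of 1.38, 1.37 and 1.37. The nearest peak outside overlapped PSR1 by 1 bp in Tfg1-HA replicate 2 and had a fold of 1.24.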

How the data were processed

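RNAPII ChIP-seq and input libraries were made from a Tfg1-HA strain and a Tfg1-K60,61R-HA strain. The authors trimmed reads, aligned them to sacCer3 with Bowtie2 2.3.5.1 and called broad peaks per IP library with MACS2 2.2.7.1, paired-end, with input as control and a q cut-off of 0.1; replicates were not pooled. In the deposited lists, the fold ratio gives IP over input-derived background averaged over the region. Deposited p-values and q-values are given as −log10 and averaged likewise, and the deposited score is MACS's rescaled q-value, which was not analysed. The lists hold no counts, so that the study's differential binding test was not run and depth is unknown.

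Lists were assigned to groups by the sample labels. Of 1992 rows deposited for Tfg1-K60,61R-HA replicate 1, 894 that repeated the list of replicate 2 were removed. Peaks were compared with the 6002 nuclear ORFs and other features of R64, the same build, with Python 3.11.15 and NumPy 2.4.6. Overlapping ORF-free peaks were merged into loci, named by the flanking ORFs. A locus was named in the text if it was ORF-free in all 4 lists, held an RNAPII ncRNA gene, was among the 5 ORF-free peaks of highest fold of a list, or had one of the 5 highest mean folds among loci of 1 genotype; others are given as examples. Members and lists were chosen with earlier results of these data known. Group means of the values per list were set against each other by exact permutation (two-sided), and p-values measure the spread between these lists. Alternatives were a fold of at least 2, a −log10 q of at least 2, 100 bp of clearance from ORFs, up to 10% of a peak over ORFs, no repeats, the repeated rows kept, each list left out, a locus coverage of 50%, and a replicate block. The interval functions were tested on simulated data. Sequences and annotation are from the S288C reference, not W303a.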

Additional observations from a re-analysis of the deposited data

How the results depend on the processing

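Differences are Tfg1-K60,61R-HA minus Tfg1-HA. The number of ORF-free peaks (−2) became 4.5 with 100 bp of clearance, 0 without repeats and 24 with the repeated rows kept. Covered length (1.22 kb) became −2.32 kb with up to 10% of a peak over ORFs, and the share near an ORF start (−0.963 points) became 18.1 when fold had to reach 2 and 1.82 when −log10 q had to. Loci in the Tfg1-HA lists only (7) became 3 at the fold limit and 2 with clearance, and those in the Tfg1-K60,61R-HA lists only (2) became 0 in both cases and 5 with the rows kept. Loci ORF-free in all 4 lists (11) became 3 at the fold limit, 7 with clearance, 18 with up to 10% over ORFs and 6 without repeats. With 1 list left out, the difference ranged from −6 to 2 peaks, from −3.84 to 6.27 kb and from −8.66 to 6.73 points near a start. For peaks over RNAPII ncRNA genes it ranged from 2.5 to 3.5. Loci of 1 genotype only then ranged from 8 to 27 and from 3 to 7, where a list left out also drops a condition of the pattern. The share of peaks that were ORF-free and the count over ncRNA genes kept their direction in every alternative run, but the ncRNA difference (3) fell to 1 at the fold limit (exact permutation p = 1), was 3.5 with overlapping groups with up to 10% over ORFs (exact permutation p = 0.667) and rose to 7 with the rows kept. The cause of these changes was not tested.

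The deviations of the lists numbered 1 correlated at 0.0570 over 135 loci. Such a correlation cannot show whether replicate numbers paired the lists by design. With a replicate block the differences stayed −2 peaks (exact sign-flip p = 1), 0.811 points of share (0.5), 1.22 kb (1), 3 ncRNA peaks (0.5) and −0.963 points near a start (1), where the smallest p is 0.5. Depth cannot be read from peak lists, so that a missing peak does not show absent RNAPII.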
